A study of Mus musculus with 2 samples.

Results

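The genes described here are 10 regulators of neuronal RNA processing taken by symbol from 4 families, the Ptbp, Rbfox, Nova and Elavl genes, out of 55536 annotated mouse genes. They are Ptbp1, Ptbp2, Rbfox1, Rbfox2, Rbfox3, Nova1, Nova2, Elavl2, Elavl3 and Elavl4, with 100 annotated transcripts among them, and the rule that takes them names no measured value. The tissue was left cerebral cortex of 4-day-old female B6CASTF1/J mice, which are hybrids of C57BL/6J and the wild-derived strain CAST/EiJ. Total RNA-seq gave 1 group of 2 libraries, each made from 300 ng of RNA with ERCC spike-in RNAs, and no treatment or genotype was compared. The labels call the libraries biological replicates 1 and 2 from separately numbered tissue samples, but both samples carry the same donor entry. The spread between them therefore cannot be split into animal, dissection and library preparation.

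Proteins of these families bind pre-mRNA in or beside alternative exons and set whether the exon is kept, and Elavl proteins also bind AU-rich stretches of mature mRNA. Ptbp1, the polypyrimidine tract binding protein of progenitors and non-neuronal cells, mostly represses exons. Its neuronal relative Ptbp2 takes over as neurons form, because Ptbp1 causes skipping of an exon in the Ptbp2 transcript that is needed for a stable mRNA. Rbfox proteins recognise the element TGCATG, Nova proteins recognise clusters of YCAY, and the product of Rbfox3 is the neuronal nuclear marker NeuN.

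Both Ptbp genes carry an alternative exon of 34 bases whose loss shifts the reading frame, and it is shown first because the stability of either mRNA turns on it. In the lines below, which are on GRCm38 (mm10), capitals mark the exon and lower case marks the 12 bases joined to it on either side in the spliced transcript, read 5′ to 3′. The exons of both genes were identical at 26 of 34 bases, or 76.5%.
Ptbp1, chr10:79862014-79862047, plus strand: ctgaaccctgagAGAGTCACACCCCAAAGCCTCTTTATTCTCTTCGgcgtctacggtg
Ptbp2, chr3:119724612-119724645, minus strand: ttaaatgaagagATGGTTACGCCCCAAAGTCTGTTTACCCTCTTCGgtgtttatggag

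The Rbfox genes share another pair of exons near the end of the coding region. The 40-base exon is the form known from brain, the 43-base exon the form known from muscle, and no annotated transcript of Rbfox1 or Rbfox2 holds both. In the annotation, Rbfox3 has the 40-base exon and no 43-base partner. The 40-base exons of Rbfox1 and Rbfox2 matched at 34 of 40 bases, and those of Rbfox2 and Rbfox3 at 31, whereas the 43-base exons of Rbfox1 and Rbfox2 matched at 27 of 43. The brain exons come first in the lines below, then the muscle exons, with capitals for the exon.
Rbfox1, chr16:7363865-7363904, plus strand: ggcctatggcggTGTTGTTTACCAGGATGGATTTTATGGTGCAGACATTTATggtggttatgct
Rbfox2, chr15:77094451-77094490, minus strand: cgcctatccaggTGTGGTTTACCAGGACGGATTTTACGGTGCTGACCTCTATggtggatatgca
Rbfox3, chr11:118496351-118496390, minus strand: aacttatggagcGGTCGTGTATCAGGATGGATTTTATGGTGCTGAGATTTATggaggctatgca
Rbfox1, chr16:7369801-7369843, plus strand: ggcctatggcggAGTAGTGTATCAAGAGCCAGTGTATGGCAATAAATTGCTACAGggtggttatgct
Rbfox2, chr15:77091812-77091854, minus strand: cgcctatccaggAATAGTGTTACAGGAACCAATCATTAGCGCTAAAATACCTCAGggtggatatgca

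An exon of 93 bases in the Rbfox genes encodes part of the RNA-binding domain, and the protein made without it binds RNA poorly. Elavl2 and Elavl4 share an exon of 39 bases just before their last exon, which lies in the linker between the second and the third RNA-binding domain of Hu proteins. Both lengths keep the reading frame. The 93-base exons of Rbfox2 and Rbfox3 matched at 69 bases (74.2%), and the 39-base exons of Elavl2 and Elavl4 at 33 (84.6%). Capitals again mark the exon.
Rbfox2, chr15:77105577-77105669, minus strand: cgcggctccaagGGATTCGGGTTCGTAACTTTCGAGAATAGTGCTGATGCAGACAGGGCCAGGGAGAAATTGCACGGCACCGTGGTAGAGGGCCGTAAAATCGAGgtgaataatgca
Rbfox3, chr11:118502842-118502934, minus strand: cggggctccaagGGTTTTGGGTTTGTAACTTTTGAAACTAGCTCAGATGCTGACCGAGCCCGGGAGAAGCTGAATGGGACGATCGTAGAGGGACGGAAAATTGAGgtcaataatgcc
Elavl2, chr4:91254141-91254179, minus strand: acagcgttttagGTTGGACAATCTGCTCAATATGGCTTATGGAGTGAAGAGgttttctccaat
Elavl4, chr4:110209740-110209778, minus strand: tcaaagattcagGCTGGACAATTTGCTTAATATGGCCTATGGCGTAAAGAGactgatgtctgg

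Across whole coding regions the paralogs were less alike than these exons in the Ptbp and Elavl families. Aligned coding sequences matched at 71.2% between Ptbp1 and Ptbp2, at 70.3% to 74.4% within Rbfox, at 70.0% between Nova1 and Nova2 and at 76.0% to 78.1% within Elavl. Reads were seldom shared between genes: the posterior standard deviation that the quantifier gave for a member's gene count was at most 2.93 counts.

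The gene table of replicate 1 held 29310533 expected counts and that of replicate 2 held 28844674, and the members took 0.223% and 0.230% of them. Levels are in TPM, a transcript's share of all transcripts after scaling by effective length, from the deposited gene table of a first quantifier, called the first table. A second table holds estimates of a different quantifier made directly from the reads. Neuronal markers (Tubb3, Snap25, Syt1 and Stmn2) summed to 2942 and 2835 TPM, the radial glia and astrocyte markers to 767 and 721, and the dividing-cell markers Mki67 and Top2a to 20.6 and 22.2. Oligodendrocyte-lineage markers summed to 79.3 and 81.7 TPM, with the myelin gene Mog at 0.06 and 0.10, microglial markers to 22.3 and 25.4, endothelial to 48.5 and 50.7, mural to 43.9 and 44.3 and meningeal to 79.8 and 77.4. Both haemoglobin genes and both choroid plexus markers differed between the libraries: haemoglobin summed to 324 and 41.3 TPM, and Ttr with Folr1 to 211 and 2.63. Their part in the results below was not tested. In whole tissue, fewer cells of a type and less RNA per cell cannot be told apart.

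All 10 members were detected, that is, at 1 TPM or more in both libraries, a level reached by 27.6% of all annotated genes and by 59.6% of nuclear protein-coding genes. Their median level was 90.6 TPM, against 17.1 TPM for detected protein-coding genes, and they lay between percentile 52.7 (Nova1) and percentile 97.4 (Rbfox2) of those genes. Rbfox2 was the most abundant member and Nova1 the least, in both tables.

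Of the Ptbp genes, Ptbp2 was the more abundant in this tissue. Ptbp2 (chr3:119718742-119784466, minus strand) was at 123.6 and 128.5 TPM in replicates 1 and 2, or 126 ± 3.42 (SD, n = 2). Ptbp1 (chr10:79854427-79864771, plus strand) was at 40.3 and 46.05 TPM, or 43.2 ± 4.07. Every Ptbp2 value lay above every Ptbp1 value, and Ptbp2 made up 74.5% ± 1.28 of the family's TPM. The log2 ratio of TPM + 1, Ptbp2 over Ptbp1, was 1.59 and 1.46. The level of Ptbp1 depended on short annotated transcripts: with only transcripts of at least 1000 bases it was 24.1 TPM, while Ptbp2 was then at 91.4 TPM and the ratio at 1.88. The second table gave 205 and 202 TPM for Ptbp2, and 39.3 and 41.7 for Ptbp1. The tables spread TPM over different totals: rescaled over nuclear protein-coding genes alone, the second table was at 1.01 times the first for Ptbp2 and at 0.585 times for Ptbp1. Ptbp1 is overlapped on the opposite strand by Plppr3, at 139 and 151 TPM, and Ptbp2 contains on its own strand the sense-intronic gene Gm42664, at 17.2 and 18.8 TPM. The sources used here do not state whether the counting used strand.

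In the Rbfox family, Rbfox2 stood above the other two. Rbfox1 (chr16:5885355-7411526, plus strand), a gene of 1526 kb, was at 111.7 and 121.4 TPM. Rbfox2 (chr15:77078990-77307004, minus strand), which is also active outside the nervous system, was at 194.7 and 208 TPM, and Rbfox3 (chr11:118489762-118911597, minus strand) at 96.4 and 95.5. The libraries did not overlap between any pair of these genes, but how often this holds for pairs of all genes was not computed. Rbfox1, Rbfox2 and Rbfox3 took 28.2% ± 0.598, 48.6% ± 0.430 and 23.2% ± 1.03 of the family's TPM. The second table put Rbfox1 at 213 and 217 TPM, Rbfox2 at 293 and 296, and Rbfox3 at 141 and 130, in the same order. Rescaled over protein-coding genes, those values were 1.15, 0.911 and 0.880 times the first table's.

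Nova1 and Nova2 encode nuclear KH-domain proteins first known as targets of antibodies in a paraneoplastic movement disorder. Nova2 (chr7:18925888-18965319, plus strand) was at 69.5 and 75.3 TPM. Nova1 (chr12:46694517-46818929, minus strand) was at 19.2 and 18.2 TPM. Nova2 thus held 79.5% ± 1.54 of the family, and the log2 ratio of Nova2 over Nova1 was 1.80 and 1.99. In the second table Nova2 was at 98.3 and 104 TPM and Nova1 at 32.1 and 28.8, or 0.872 and 1.01 times the first table after that rescaling. Elavl3, Elavl4 and Elavl2 encode the neuronal Hu proteins HuC, HuD and HuB. Elavl3 (chr9:22015005-22052023, minus strand) was at 168.3 and 181.4 TPM, Elavl4 (chr4:110203722-110351909, minus strand) at 50.5 and 56.1, and Elavl2 (chr4:91250763-91400785, minus strand) at 84.2 and 86.2. Elavl3 was the highest of the family in either library, with 55.8% ± 0.357 of its TPM. In the second table Elavl3 stayed highest, at 218.5 and 233.3 TPM. That table placed Elavl4 higher, at 125.9 and 131.6 TPM against 110.4 and 119.6 for Elavl2, so that the order of these genes turned round. Transcripts under 1000 bases held 58.2% of Elavl4 and 8.02% of Elavl2 there, against 21.7% and 21.5% in the first table. The order on longer transcripts alone was not computed for the second table. Rescaled over protein-coding genes, the second table was at 0.806 times the first for Elavl3, 1.51 times for Elavl4 and 0.842 times for Elavl2.

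**Figure D1:**
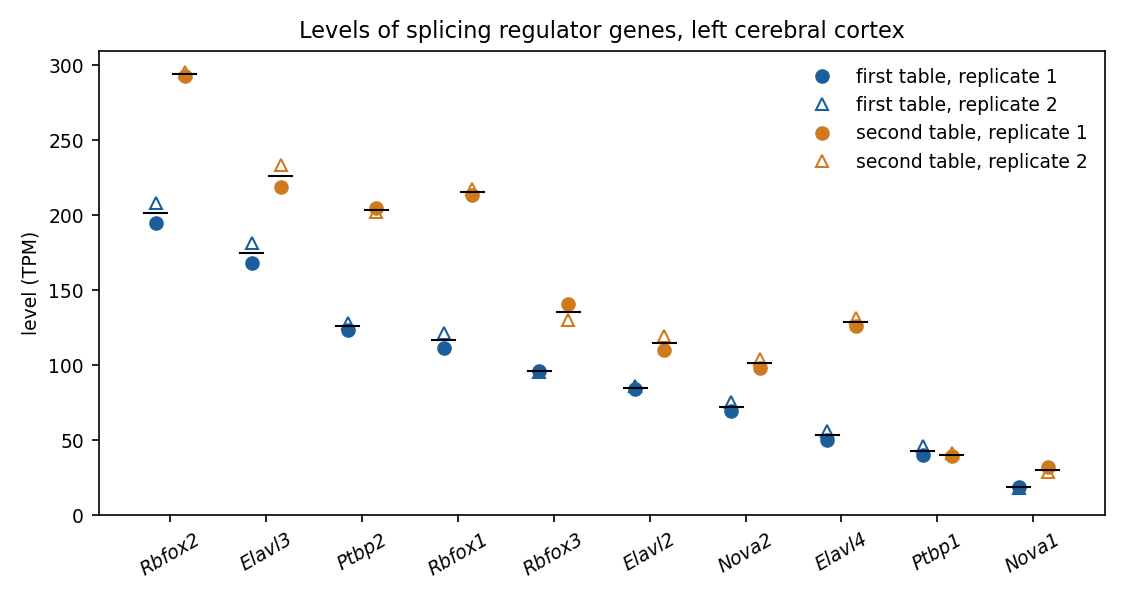
Level in TPM (linear axis) of each member in replicate 1 (filled circles) and replicate 2 (open triangles), with a bar at their mean, in the first and second tables. Rbfox2 is highest and Nova1 lowest in both tables, and Elavl4 changes its place, with 53.3 TPM in the first table and 128.7 TPM in the second. In the second, 58.2% of the Elavl4 level lay on transcripts under 1000 bases.

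Ranked by mean TPM in the first table, the order was Rbfox2, Elavl3, Ptbp2, Rbfox1, Rbfox3, Elavl2, Nova2, Elavl4, Ptbp1 and Nova1. Of 9 neighbouring steps, 8 were wider than the sum of the standard deviations on either side. The share of such steps over all genes was not computed, so this count only describes the order of the members. The exception was Ptbp2 and Rbfox1, 9.50 TPM apart with standard deviations that summed to 10.2. In the second table, Elavl3 and Rbfox1, and likewise Rbfox3 and Elavl4, did not differ beyond their spread.

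Within families, a pair was called apart when its log2 ratio of TPM + 1 reached 1 in either direction, and in the same direction, in each library. This held for 4 of 8 pairs, while 64.9% of all pairs of detected protein-coding genes met the same rule. The pairs were Ptbp2 over Ptbp1 (1.53 ± 0.09, SD, n = 2), Nova2 over Nova1 (1.90 ± 0.13), Elavl3 over Elavl4 (1.70 ± 0.03) and Rbfox2 over Rbfox3 (1.06 ± 0.08). The last lay just inside the limit, at 1.01 and 1.11, and Elavl3 over Elavl2 just outside, at 0.99 and 1.07. Rbfox1 over Rbfox2 was at -0.78 ± 0.02 and Rbfox1 over Rbfox3 at 0.28 ± 0.09. The second table had 3 pairs apart. Elavl3 over Elavl4 was at 0.81 there, and Elavl4 over Elavl2, which was -0.67 ± 0.08 in the first table, was at 0.16. With transcripts of at least 1000 bases only, Rbfox2 over Rbfox3 was at 0.80 and Elavl3 over Elavl2 at 1.20.

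**Figure D2:**
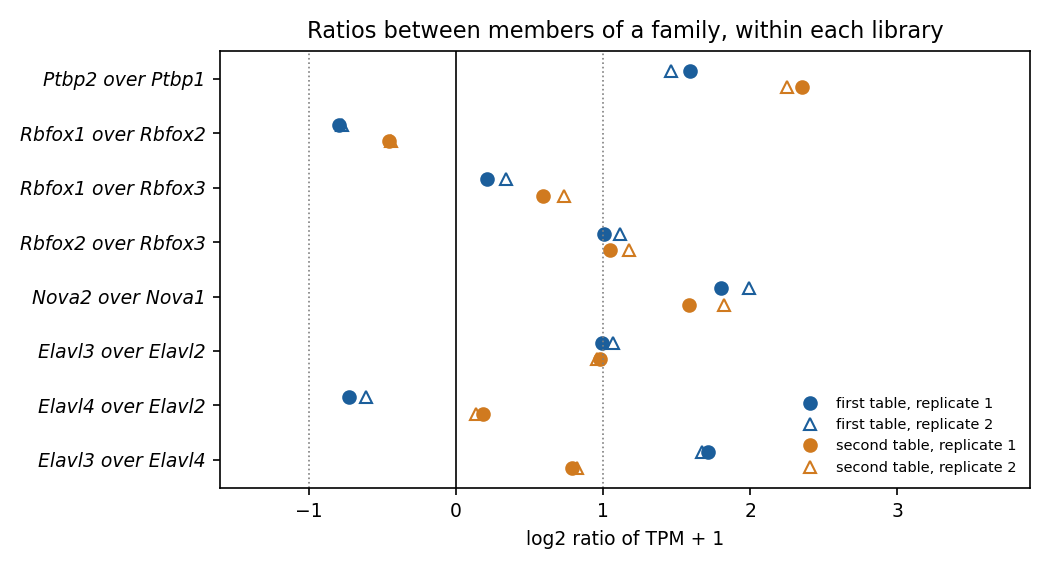
Log2 ratio of TPM + 1 between members of a family, the gene named first over the second, for each library and table; dotted lines mark a ratio of 1 in either direction. Ptbp2 over Ptbp1 and Nova2 over Nova1 lie beyond the line in both tables, and Elavl4 over Elavl2 lies on opposite sides of 0.

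Between the libraries the members moved little. None of 10 was past 1.5-fold on TPM + 1, against 5.88% of genes with a mean TPM of at least 1 and 1.56% of protein-coding ones. The largest difference, replicate 2 over replicate 1, was that of Ptbp1, at 0.19 on the log2 scale, and 8 members were higher in replicate 2. The median was 0.10 for the members and 0.07 for all genes. By counts scaled with TMM factors, Rbfox3 had a ratio of 0.895 (95% Clopper-Pearson interval 0.858 to 0.935) and Rbfox2 one of 0.972 (0.951 to 0.994), so Rbfox2 lay above 1 by TPM and below 1 by counts. The intervals of the other 8 members held 1, among them that of Ptbp1, with a ratio by counts of 1.00 (0.926 to 1.08). All these intervals cover counting error only.

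The abundance of a gene can hide transcripts that make no protein. In the first table, transcripts annotated as protein-coding made up a median of 92.5% of a member's TPM, against 85.7% over 11875 protein-coding genes. Ptbp1, Ptbp2, Nova1 and Elavl4 had lower shares than the 85.7% of those genes. Nova1 was at 74.35% and Elavl4 at 84.02%, with 16.71% and 15.98% on noncoding transcripts annotated as processed. Both of the latter lay under 20.63%, the value that 90% of all genes did not pass in the first table. In the second table Nova1 was at 64.14% protein-coding and Elavl4 at 70.04%. Their processed transcripts then took 30.39% and 29.96%, while 90% of all genes had no more than 24.84% there. In Ptbp1, 60.4% ± 1.88 of the TPM was protein-coding, 28.9% ± 2.60 came from retained-intron transcripts and 6.08% ± 0.03 from transcripts marked for nonsense-mediated decay, the pathway that removes mRNAs with an early stop. In Ptbp2 the shares were 67.4% ± 1.34, 15.5% ± 1.58 and 17.1% ± 0.429. By the second table they were 67.3% ± 2.52, 21.6% ± 3.60 and 11.1% ± 1.09 in Ptbp1, and 56.3% ± 3.10, 34.5% ± 7.29 and 7.65% ± 3.32 in Ptbp2. The order of the Ptbp genes thus turned round between the tables for all 3 kinds. The annotation marks no transcript of the other 8 members for decay, so none could be counted there. For comparison, 90% of all genes had no more than 33.6% on retained-intron and 11.7% on decay transcripts in the first table. In the second table those limits were 34.48% and 16.2%. Ptbp2 passed the decay limit in the first table only, and Ptbp1 in neither. On retained-intron transcripts Ptbp2 lay at the limit in the second table, with 34.54%. Of the Elavl genes, Elavl2 had 11.2% ± 1.35 on retained-intron transcripts, while Elavl3 and Nova2 were wholly protein-coding by annotation.

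**Figure D3:**
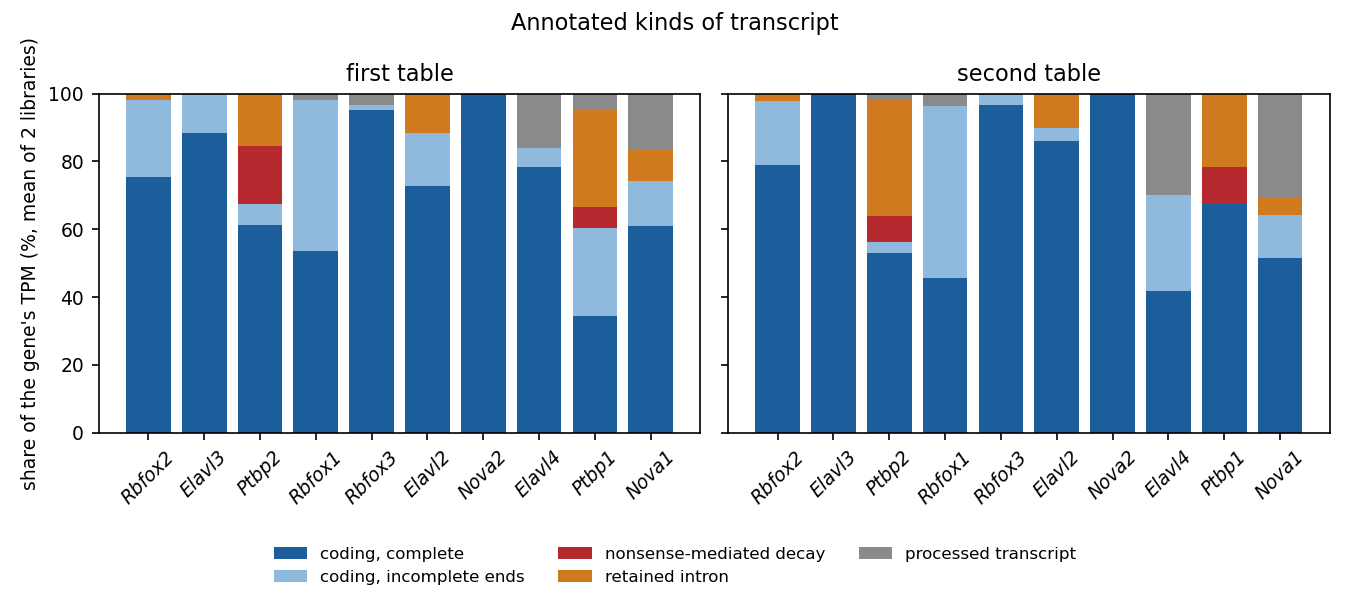
Share of each member's TPM (percent, mean of 2 libraries) by annotated kind of transcript in the first and second tables, with protein-coding transcripts split by whether their ends are complete. Decay-marked transcripts are annotated for Ptbp1 and Ptbp2 only, and the incomplete coding share of Ptbp1 seen in the first table, 26.1%, is absent from the second.

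The leading transcript, the one with the highest TPM, was the same in both libraries for 8 of 10 members, against 87.2% of multi-transcript genes, and likewise for 8 of 10 within the second table, against 85.2%. The exceptions of the first table were Ptbp1, led by Ptbp1-202 in replicate 1 and by a 375-base fragment in replicate 2, and Rbfox3, led by Rbfox3-205 and Rbfox3-204. It was the same in both libraries and both tables for 4 of 10, against 64.9% of such genes. These were Rbfox2-203 with 48.4% ± 1.72 of its gene, Nova1-201 with 61.1% ± 3.09, Elavl3-201 with 78.6% ± 0.348, and Nova2, whose 2 transcripts have identical sequences and are split evenly by either quantifier. Ties were broken by transcript identifier, so Nova2 has no real leader and entered each of these counts as the same by rule. Elavl3-202, a coding fragment of 397 bases, took 12.5% and 10.6% of Elavl3 in the first table and had no TPM in the second.

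For Ptbp1 the tables disagreed on which transcript leads. Ptbp1-202, a complete coding transcript of 2598 bases, took 19.0% and 12.1% of the gene in the first table, and the 375-base fragment, a coding transcript with incomplete ends, took 19.0% and 19.8%. The second table gave that fragment no TPM and put 54.2% and 55.6% on Ptbp1-216, a complete transcript of 3110 bases. In the first table the posterior standard deviation of the Ptbp1-202 count was 15.4% and 30.9% of it. Transcripts under 1000 bases together made up 44.1% ± 2.52 of Ptbp1. For Ptbp2 the first table was led by the complete Ptbp2-201 at 44.9% ± 2.31, whereas the second was led by the retained-intron fragment Ptbp2-211 in replicate 1 and by the coding Ptbp2-213 in replicate 2.

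In the Rbfox family, Rbfox1-201, a complete transcript, took 51.5% and 48.5% of its gene, and Rbfox1-205, which starts farther upstream and lacks the end of the coding region, took 44.0% and 45.1%. These transcripts led in the second table too, Rbfox1-201 in replicate 1 and Rbfox1-205 in replicate 2. Rbfox3 was shared by 3 transcripts, with 31.7% and 28.6% on Rbfox3-205, 28.9% and 26.7% on Rbfox3-203 and 28.6% and 30.8% on Rbfox3-204. In the second table Rbfox3-203 led with 42.8% ± 0.163. The leader of Elavl2, Elavl2-208, held no more than 22.5% ± 2.19 of its gene, and the second table put Elavl2-206 first with 26.9% ± 1.65. Elavl4 was led by the coding Elavl4-203 at 34.3% ± 3.91 in the first table and by the noncoding Elavl4-211 at 27.6% ± 1.60 in the second.

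Exon use was read from the same transcript TPM. A cassette exon is an internal exon of one transcript that lies wholly inside an intron of another, and its inclusion is the TPM of the transcripts that hold it as a percentage of those that hold or skip it. The members have 30 such exons, all with at least 1 TPM behind the percentage, and 9 were included in 10% to 90% in both libraries, against 31.6% of 20551 in protein-coding genes. Of the 9, 3 were in Ptbp1, 2 in Rbfox2 and 1 each in Ptbp2, Rbfox3, Nova1 and Elavl2.

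The 34-base exon of Ptbp1 printed above was included in 87.6% and 86.4%, with 86.1% and 87.6% in the second table, so all 4 values lay within 86.1% to 87.6%. Both transcripts that skip it are marked for decay, and only Ptbp1-201 had TPM in either table. In the first table the posterior standard deviation of the Ptbp1-201 count was 39.9% and 38.4% of it, so the closeness of these values is not a measure of their precision. The 34-base exon of Ptbp2, the one that Ptbp1 represses, was included in 75.2% and 75.5%, and in 81.4% ± 4.76 in the second table. The first-table value rested on 1 fragment: Ptbp2-206, a decay transcript of 576 bases, carried nearly all of the skipped form there, with 19.6 and 20.7 TPM. With transcripts of at least 1000 bases only, inclusion in the first table was 97.7%. In the second table Ptbp2-208, a decay transcript of 1598 bases, carried 10.8 and 9.59 TPM of the skipped form. Ptbp2-206 was at 0 and 10.6 TPM there, and Ptbp2-204 at 4.02 and 5.49.

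Ptbp1 has a further exon of 78 bases in the linker between the second and the third RNA-binding domain. It was included in 43.4% and 43.8%, against 68.7% and 75.7% in the second table, where Ptbp1-216, which holds the exon, led the gene. An exon of 196 bases at the upstream end of Ptbp1 was included in 58.1% and 77.9%, on 2.67 and 5.61 TPM, and the transcripts that define it had no TPM in the second table. Those values set Ptbp1-215 against Ptbp1-203 alone. Against 9 transcripts with a 31-base form of the same exon, the 196-base form held only 4.78% and 11.6%.

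In Rbfox1 the brain exon of 40 bases dominated, with inclusion of 97.9% and 96.5%, and the muscle exon of 43 bases was at 2.06% and 3.48%. The second table gave 80.8% ± 1.03 and 19.2% ± 1.03. There the muscle exon rested mainly on Rbfox1-206, a 558-base coding transcript with incomplete ends, at 22.3 and 15.1 TPM. The first table gave Rbfox1-206 no TPM. Rbfox1-205 ends before both exons and is not counted in these values. In Rbfox2 the brain exon was included in 78.9% and 78.8% and the muscle exon in 10.5% and 12.2%, with 70.5% ± 0.581 and 14.7% ± 0.324 in the second table. The brain exon was thus the commoner form of both genes in either table. The 93-base exon of the RNA-binding domain was included in 91.5% and 90.4% in Rbfox2, and in 100% and 99.7% in Rbfox3. That of Rbfox1 is not an annotated cassette. In Rbfox2, the only transcript with TPM that skips the 93-base exon has 1041 bases. It was at 15.75 and 18.69 TPM in the first table. In both tables this transcript was also the only one with TPM that holds the muscle exon. The Rbfox2 values of these exons are therefore not independent readings.

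Rbfox3 differed from its paralogs at the brain exon. Its 40-base exon printed above had no muscle alternative, but 3 transcripts, Rbfox3-205 among them, started the same exon 141 bases farther upstream, which adds to the coding region without shifting its frame. This longer form (chr11:118496351-118496531) held 40.2% and 38.9% of the TPM of either form, and 30.8% and 30.2% in the second table. Rbfox3-205 has 1080 coding bases, and Rbfox3-203 and Rbfox3-204 have 939 each. An untranslated exon near the start of Rbfox3, also of 40 bases, was included in 67.0% and 69.7%. Of 17 pairs of internal exons that share one end, 6 had the longer form at 10% to 90% in both libraries, against 36.9% of 14160 such pairs in protein-coding genes. Besides Rbfox3 and 3 overlapping pairs in Ptbp1, whose longer forms ranged from 15.3% to 74.4%, these were a 12-base extension in Rbfox2, at 75.1% and 76.6%, and a 3-base extension in Elavl2, at 85.4% and 88.7%. The extension in Rbfox2 was carried by Rbfox2-203 and Rbfox2-204, which also hold the brain exon of that gene.

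The 39-base linker exon was mostly kept, at 86.1% and 94.0% in Elavl2 and at 92.6% and 93.9% in Elavl4. Elavl2 also has an exon of 91 bases that carries the start codon of the transcripts that include it. It was included in 38.5% and 44.9%, and in 54.2% and 62.8% in the second table. In Nova1 an exon of 65 bases, found only in the noncoding Nova1-205, was at 26.7% and 11.6%, and at 40.8% and 28.7% in the second table. The first-table values were the widest difference between libraries after the 196-base exon of Ptbp1. Over the 9 exons the median difference between libraries was 1.73 percentage points, against 4.17 over 6485 exons, and over the 8 with a value in both tables the median difference between tables was 9.17, against 8.50 over 6468.

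**Figure D4:**
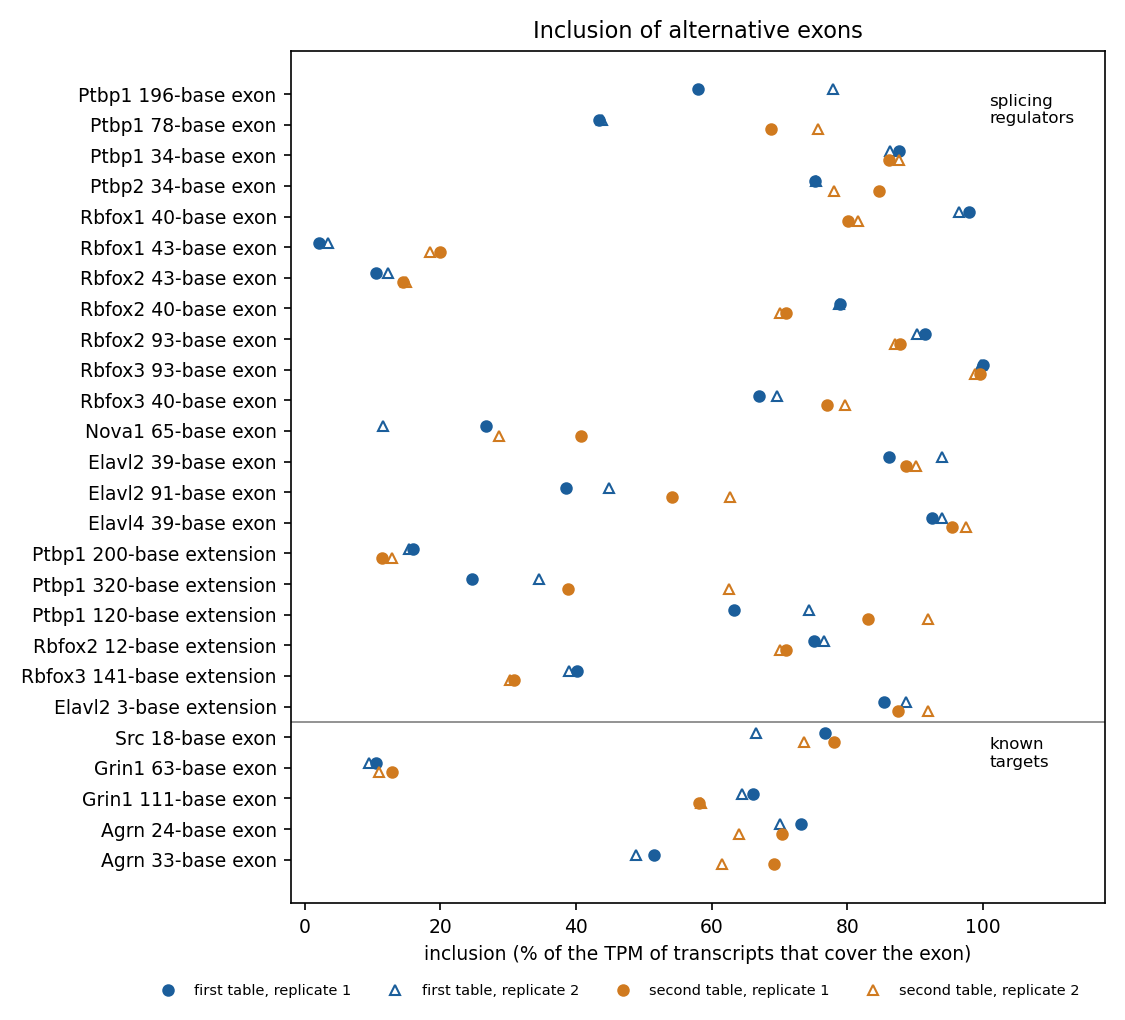
Inclusion (percent of the TPM of transcripts that hold or skip the exon) of the members' alternative exons and, below the line, of known targets, for each library and table; an extension is the longer form of an exon with another splice site. The 34-base exon of Ptbp1 lies between 86.1% and 87.6% in all 4 values, while the 78-base exon lies at 43.4% and 43.8% in the first table and at 68.7% and 75.7% in the second.

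Exons of other genes known as targets of these proteins were read in the same way. The N1 exon of Src, 18 bases long and repressed by Ptbp1, was included in 76.8% and 66.5%. In Agrn, whose Z exons are needed at the neuromuscular junction and depend on Nova, the 24-base exon was at 73.2% and 70.1% and the 33-base exon at 51.5% and 48.8%. In Grin1, a subunit of the NMDA receptor, the N1 exon of 63 bases was at 10.5% and 9.52% and the C1 exon at 66.1% and 64.5%. In the second table the means were 75.8% for Src, 67.2% and 65.4% for Agrn, and 11.9% and 58.3% for Grin1. The exon of Dlg4 known as a Ptbp target was not matched by length in this annotation and is not reported. No library here lacks any of the regulators, so these percentages were not tested against them.

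Of 34 further RNA-binding proteins listed as partners or relatives, 31 were detected, with a median of 53.7 TPM, and none was past 1.5-fold between the libraries. Of the members' own relatives, Ptbp3 was at 13.8 ± 0.820 TPM and Elavl1, the broadly active HuR, at 43.7 ± 0.141. The highest of the list were Hnrnpk at 469 ± 26.1 TPM and Hnrnpa2b1 at 379 ± 22.1, both general nuclear RNA-binding proteins. The lowest were Esrp1 and Esrp2, splicing factors of epithelia, with 0.130 and 0.110 TPM for Esrp1 and Esrp2 listed at 0 in the first table. Srrm4, a neuronal activator of microexons, was at 21.3 ± 1.68 TPM. The microRNA miR-124 is known to lower Ptbp1 in neurons, and these libraries measure its host transcripts rather than the mature form. Mir124a-1hg was at 71.5 and 107.5 TPM, higher in replicate 2, Mir124-2hg at 53.9 and 60.7, and Mir9-3hg, host of a miR-9 gene, at 44.7 and 40.1. Of 9 listed host and microRNA genes, 4 were detected, Mir124a-2 being the other, at 15.4 and 16.2 TPM and listed at 0 in the second table.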

How the data were processed

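Libraries were taken as 1 group with the replicate numbers of the labels. Build mm10 and GENCODE M21 are named in the descriptions deposited with the files; the sources used here do not give the aligner or tool versions. Per the file headers, the first table holds expected counts, in which the authors' quantifier splits shared reads, with TPM, FPKM, the percent of the gene's TPM on each transcript and a posterior standard deviation, used here as a score of shared reads. The deposited second table holds estimated counts and TPM. The deposited TPM is per effective length, spike-ins included, with 99.0 bases taken off each length in the first table. Entries that name no gene took 0.330% and 0.346% of the counts and were left out. Gene counts summed to 29310533 and 28844674.

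Second-table TPM was summed per gene. Ratios used log2(TPM + 1). Exons came from GENCODE M21, and sequences from its transcripts on GRCm38. Counts were rounded for Clopper-Pearson intervals and scaled with TMM factors (edgeR 4.0.16, R 4.3.3); Python 3.11.15, numpy 2.4.6, pandas 2.3.3, scipy 1.17.1, matplotlib 3.10.9 and Biopython 1.88 did the rest. With 2 libraries the smallest two-sided sign-flip p is 0.5, so no test was made. The fold rule was tested on counts simulated with Poisson noise, and the inclusion formula on a made-up gene with set TPM. Neither covers how reads are split between transcripts. Alternatives were the second table, FPKM, TPM over nuclear protein-coding genes, TMM or DESeq2 1.42.0 median-ratio scaling, a pseudocount or minimum of 0.1, no minimum and leaving out each library; transcripts of at least 1000 bases and the splice-site forms were added after seeing the data. Members and lists were chosen with earlier results of these data known. Named were all members, transcripts with at least 10% in both libraries of a table where a result turned on them, exons at 10% to 90%, known exons chosen by gene and length, and the extremes of the partner list; Ptbp3, Elavl1 and Srrm4 were named after their values were seen, as were the exons of 39, 40 and 43 bases outside that range. Some results that this rule names are left out of the text.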

Additional observations from a re-analysis of the deposited data

How the results depend on the processing

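The counts of detected members (10) and of members past 1.5-fold (0) and the 4 pairs apart held under FPKM, TPM over nuclear protein-coding genes, TMM and median-ratio scaling, a pseudocount of 0.1 and a minimum TPM of 0.1 or none. These settings treat all transcripts of a library alike, so the count of members with the same leading transcript (8) could not change under them, and ratios within a library could change through the pseudocount at most. For detected members, members past 1.5-fold, members with the same leading transcript and pairs apart, the second table gave 10, 0, 8 and 3, and transcripts of at least 1000 bases, an alternative chosen after seeing the data, gave 10, 0, 9 and 4. Without either library, pairs apart ranged from 4 to 5 and detected members stayed at 10. Inclusion, extensions and target exons included, moved by more than the SD between libraries for 22 values under the second table and by less for 3, and 8 of 10 leading shares and 9 of 10 levels moved by more than their SD. With transcripts of at least 1000 bases, 7 inclusion values, 7 leading shares and 8 levels moved by more than that. Among the pairs, 7 of 8 ratios moved by more than their SD under the second table, and 6 with transcripts of at least 1000 bases. Ptbp2 over Ptbp1 went from 1.53 to 2.30 under the second table. Only Elavl4 over Elavl2 changed sign, under the second table, where transcripts under 1000 bases held 58.2% of Elavl4 and 8.02% of Elavl2. The cause was not tested. Under transcripts of at least 1000 bases the 65-base exon of Nova1 had no TPM, since its only transcript is shorter, and the 196-base exon of Ptbp1 had no value. Leaving out a library gives no fold and no shared leading transcript, so those counts have no value there. No paired analysis was possible because the series has a single group and nothing to pair. Gene counts were 1274 or more, but a gene's TPM sums over transcripts, and short transcripts can add much TPM on few counts. In replicate 1 of the first table, the 375-base fragment of Ptbp1 gave 7.65 of 40.29 TPM on 40.99 counts. A noncoding 571-base transcript of Nova1 gave 4.51 of 19.17 TPM on 41.36 counts. The gene counts therefore do not show that depth leaves these levels unaffected. Transcript shares rest on how each quantifier splits reads that transcripts share.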
